A study of Mus musculus with 18 samples.

Results

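Nrf2, encoded by Nfe2l2, is the transcription factor through which cells answer oxidants and electrophiles. The 10 genes described here are Nfe2l2 itself and 9 of its best known targets: Gclc, Gclm, Gsr, Slc7a11, Txnrd1, Srxn1, Hmox1, Nqo1 and G6pdx. They were picked by name from the 54281 genes of the deposited count table, and not by how they behaved, although earlier results of these data were known when the set was drawn up. All 10 were found, and all 10 were among the 15210 genes that reached 10 counts in 6 or more mice and so were tested. Slc7a11 met that minimum in HGPS aortas alone.

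RNA came from whole descending aorta, with intima, media and adventitia together, of 18 male mice on a C57BL/6 background. The 6 HGPS mice, labelled LMNAG609G, carry the mutation at the Lmna locus itself, so that any cell that uses Lmna, in the vessel or elsewhere, can make the truncated lamin called progerin, and they were 64 to 75 d old. The 6 wild-type (WT) mice called 2-mo WT were 62 d old except for 1 mouse of 95 d, and the 6 called 24-mo WT were 609 to 762 d old. The labels name no treatment. Each mouse was counted as 1 replicate, with a total of 12413229 to 30844775 counts.

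In unstressed cells the adaptor Keap1 holds Nrf2 and has it degraded. Oxidized or alkylated Keap1 lets Nrf2 build up, pair with a small Maf protein and bind antioxidant response elements, where the repressor Bach1 otherwise sits. Its activity is therefore set largely at the protein level, and the targets are read as its output: they make and recycle glutathione, reduce thioredoxin and peroxiredoxins, break down heme, reduce quinones and supply NADPH.

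The antioxidant response element has the core TGACNNNGC, where N is any base. It was looked for on both strands of the RefSeq promoter windows (GRCm38.p6), which run from 250 bases before a transcription start to 50 after it, and windows were at hand for 7 of the 10 genes. The core was present in at least 1 window of 5 of them: Nfe2l2, Srxn1, Gclm, Txnrd1 and G6pdx. Of all 27025 genes with a window, 14.0% held it, and the Maf-type sequence TGACTCAGC or TGAGTCAGC stood in 0.929%. Srxn1 held such a Maf-type sequence from base -45 to base -37, counted from the transcription start as base 0. This sequence shares its letters with the AP-1 site TGACTCA. Srxn1 also held a core from base 28 to 36. Gclm held a core from -134 to -126, and the second of 3 Txnrd1 windows held 1 from -92 to -84. No match was found in the Nqo1 and Slc7a11 windows, which says only that these letters are not in these stretches. The windows of the 4 genes below are shown because they are those that differed between HGPS and 2-mo WT with no overlap of mice and had a window; they are written 5′ to 3′ on the gene's strand, with matched letters in capitals (a core read on the other strand appears as its reverse complement). They lie at chr2:152105274-152105573 (plus strand, Srxn1), chr3:122245307-122245606 (plus strand, Gclm), chr10:82858956-82859255 (plus strand, Txnrd1) and chr3:50443564-50443863 (minus strand, Slc7a11).
Srxn1: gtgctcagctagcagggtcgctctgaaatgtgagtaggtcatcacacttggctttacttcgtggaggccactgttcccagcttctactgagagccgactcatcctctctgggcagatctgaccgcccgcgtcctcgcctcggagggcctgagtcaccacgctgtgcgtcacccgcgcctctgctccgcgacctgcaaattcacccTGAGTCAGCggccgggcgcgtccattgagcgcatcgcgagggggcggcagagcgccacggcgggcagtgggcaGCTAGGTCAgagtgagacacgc
Gclm: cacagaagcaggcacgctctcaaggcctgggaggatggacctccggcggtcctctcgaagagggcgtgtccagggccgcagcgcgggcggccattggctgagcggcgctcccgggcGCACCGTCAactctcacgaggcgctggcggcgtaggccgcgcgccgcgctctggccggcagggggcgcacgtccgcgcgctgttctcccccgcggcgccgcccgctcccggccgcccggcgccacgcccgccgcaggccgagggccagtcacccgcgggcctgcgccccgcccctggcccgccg
Txnrd1: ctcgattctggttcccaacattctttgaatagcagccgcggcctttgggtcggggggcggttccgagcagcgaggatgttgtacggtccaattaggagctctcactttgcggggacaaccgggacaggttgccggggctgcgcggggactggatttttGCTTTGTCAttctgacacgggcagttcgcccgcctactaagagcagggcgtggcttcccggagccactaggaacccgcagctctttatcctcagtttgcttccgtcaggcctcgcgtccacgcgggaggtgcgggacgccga
Slc7a11: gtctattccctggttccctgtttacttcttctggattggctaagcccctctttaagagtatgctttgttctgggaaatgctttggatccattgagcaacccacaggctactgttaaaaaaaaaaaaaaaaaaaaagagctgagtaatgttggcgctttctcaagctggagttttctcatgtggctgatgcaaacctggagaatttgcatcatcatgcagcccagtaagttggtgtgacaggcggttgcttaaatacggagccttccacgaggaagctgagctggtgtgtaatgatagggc

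To give levels a common scale, counts were scaled to a common library size with TMM (CPM), and for comparisons between genes also by the gene's length in exons (CPM per kb). In 2-mo WT, Nfe2l2 was the highest of the 10 per kb, at 24.9 ± 2.32 (SD, n = 6). Nqo1 followed at 21.5 ± 2.10 and G6pdx at 17.7 ± 1.05, Srxn1 and Gsr lay between 14 and 15, Txnrd1 was at 9.69 ± 0.568, Gclc at 7.83 ± 0.752, Gclm at 5.46 ± 0.373 and Hmox1 at 4.50 ± 0.744. Slc7a11 was far below them at 0.0153 ± 0.00865. The ranges of neighbours in this order overlapped, except that G6pdx lay above Srxn1, Gsr above Txnrd1, Gclc above Gclm and Hmox1 above Slc7a11 in every mouse. With the longest transcript as the length, Txnrd1 moved from sixth place to the fourth. In HGPS, Hmox1 stood first per kb of exons at 25.4 ± 3.74, with a range that overlapped that of Nfe2l2 at 23.8 ± 1.34; by the longest transcript Nfe2l2 stood first and Hmox1 after it. In 24-mo WT, Hmox1 was at 4.47 ± 0.718, in the same ninth place as in 2-mo WT.

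**Figure D1:**
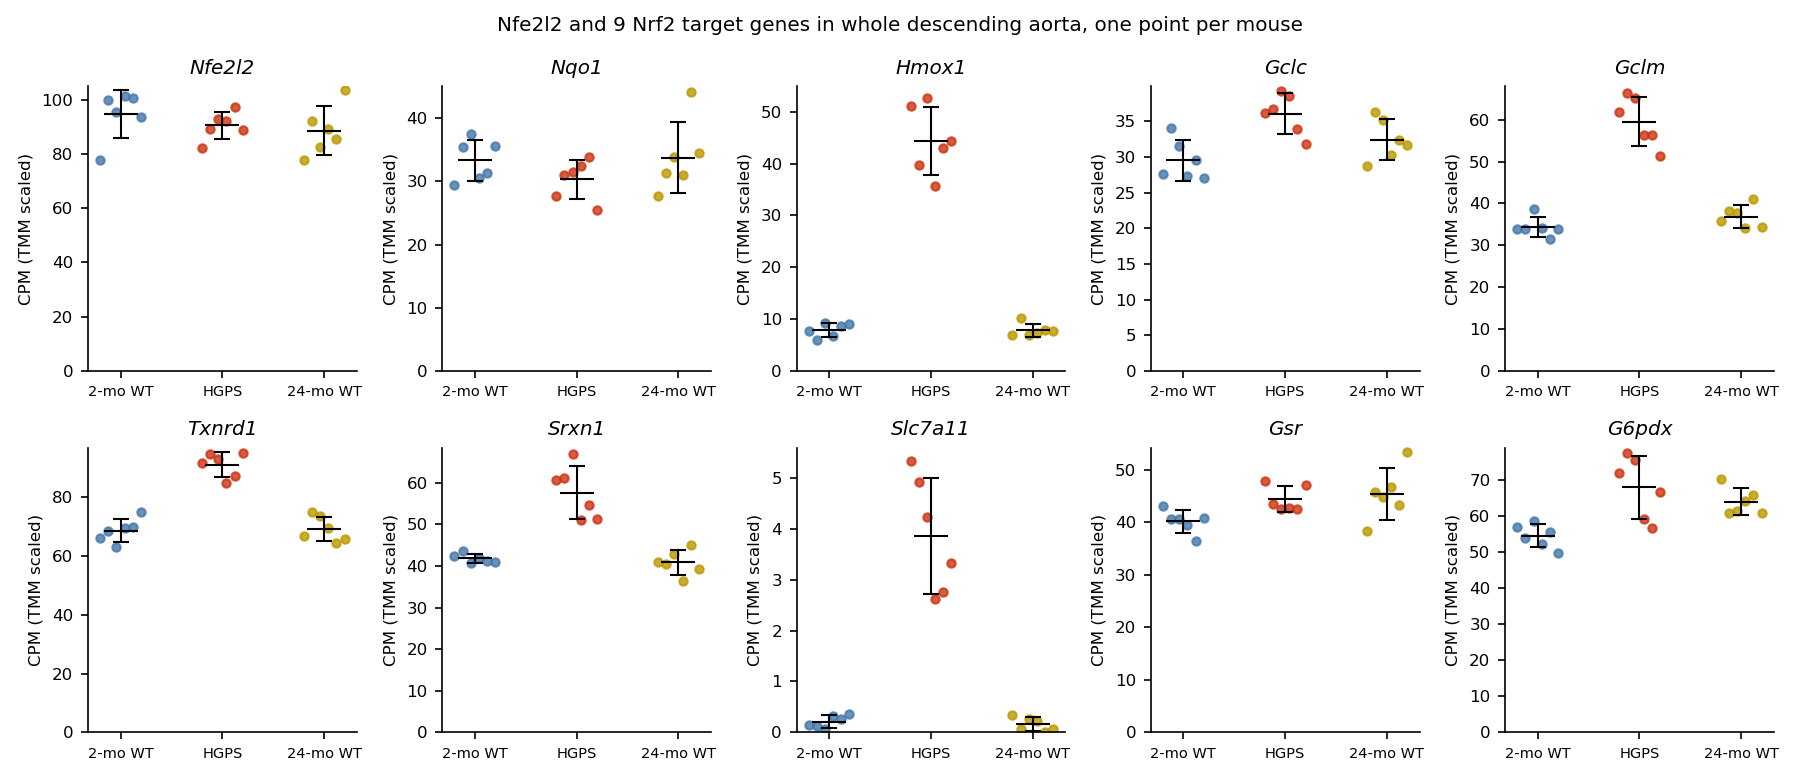
CPM of the 10 genes in each of 18 aortas (points), with the mean and SD of each group of 6 mice (bars). HGPS points lie above all WT points for Hmox1, Gclm, Txnrd1, Srxn1 and Slc7a11, while the groups overlap for Nfe2l2 and Nqo1.

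The first question was whether the pathway's genes differ between HGPS and WT mice of the same age. With edgeR's quasi-likelihood test and Benjamini-Hochberg adjustment over all 15210 genes, 7 of the 10 genes were higher in HGPS at an adjusted p under 0.05 and 0 were lower, where 22% of all genes were higher and 21.2% were lower. Without Slc7a11, which entered the test through its HGPS counts, 6 of the other 9 were higher. Of the 10 genes, 0 were lower at an unadjusted p under 0.05, and DESeq2 and limma-voom each called 7. At the study's cut-offs, a fold change of 1.5 or more and an adjusted p under 0.001, 3 were higher (Hmox1, Gclm and Slc7a11; 2 without Slc7a11), against 5.27% of all genes. In 5 genes, these 3 with Txnrd1 and Srxn1 (4 without Slc7a11), all 6 HGPS mice lay above all 6 2-mo WT mice, as was so for 11.0% of all genes. The median log2 fold change of the 10 was 0.36 and that of all genes tested 0.003.

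Nfe2l2 (chromosome 2, 75675513 to 75704641, minus strand) did not pass the test. In CPM, its lowest, median and highest values were 82.2, 90.7 and 97.3 in HGPS and 77.9, 97.7 and 101.2 in 2-mo WT. The groups overlapped, and the log2 fold change of -0.07 ± 0.07 (SE) had an adjusted p of 0.499, with a 95% interval of 0.857 to 1.06 for the fold.

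Hmox1, heme oxygenase 1, opens the heme ring and yields biliverdin, carbon monoxide and iron (chromosome 8, 75093621 to 75100589, plus strand). HGPS aortas ranged from 35.7 to 52.7 CPM with a median of 43.7, and 2-mo WT aortas from 5.98 to 9.22 with a median of 8.16. The lowest HGPS mouse was thus far above the highest WT mouse. Hmox1 rose 5.62-fold (95% interval 4.68 to 6.76; log2 2.49 ± 0.12, adjusted p = 1.48e-10), which placed it second of the 15210 genes by p.

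The 2 subunits of glutamate-cysteine ligase, the rate-limiting enzyme of glutathione synthesis, did not change by the same amount. Gclm, the modifier subunit that raises the enzyme's affinity for its substrate (chromosome 3, 122245557 to 122270732, plus strand), had lowest, median and highest values of 51.3, 59.0 and 66.3 CPM in HGPS and 31.6, 33.9 and 38.7 in 2-mo WT. All HGPS mice lay above all 2-mo WT mice, and Gclm rose 1.74-fold (log2 0.80 ± 0.07, adjusted p = 1.39e-07). For Gclc, the catalytic subunit (chromosome 9, 77754535 to 77794485, plus strand), the same 3 values were 31.8, 36.4 and 39.3 CPM in HGPS and 27.0, 28.6 and 34.1 in 2-mo WT. These groups overlapped, with a rise of 1.22-fold (log2 0.29 ± 0.08, adjusted p = 0.00404). The ratio of Gclm to Gclc in CPM was 1.65 ± 0.115 in HGPS, where the lowest mouse was at 1.46, and 1.17 ± 0.112 in 2-mo WT, where the highest was at 1.26 (SD, n = 6).

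Slc7a11 encodes xCT, the light chain of the cystine/glutamate exchanger that brings in the cystine for glutathione (chromosome 3, 49892526 to 50443614, minus strand). It was close to undetected in WT aorta: the 2-mo WT mice had 1 to 7 counts each and 22 in all, and the HGPS mice had 66 to 117 each and 519 in all. In CPM this was a median of 3.77 (2.63 to 5.33) in HGPS against 0.203 (0.0699 to 0.362) in 2-mo WT, with no overlap. The fitted rise was 17.6-fold, with a wide 95% interval of 9.52 to 32.5 (log2 4.14 ± 0.41, adjusted p = 5.7e-07). Even so, Slc7a11 remained the lowest of the 10 genes per kb in HGPS.

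Txnrd1, cytosolic thioredoxin reductase, hands electrons from NADPH to thioredoxin (chromosome 10, 82833951 to 82897712, plus strand). Its values ran from 84.8 through a median of 92.3 to 95.1 CPM in HGPS and from 63.2 through 68.9 to 75.2 in 2-mo WT. The groups did not overlap, and Txnrd1 rose 1.33-fold (log2 0.41 ± 0.06, adjusted p = 1.31e-05). Srxn1, sulfiredoxin, repairs peroxiredoxins that have been over-oxidized (chromosome 2, 152105516 to 152111376, plus strand). Its 6 2-mo WT values lay within 40.8 to 43.7 CPM (median 41.6), the narrowest spread relative to the mean of any of the 10 genes in that group, and its HGPS values within 51.1 to 66.9 (median 57.7). Here too no mice overlapped, and Srxn1 rose 1.38-fold (log2 0.46 ± 0.07, adjusted p = 3.29e-05).

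G6pdx, glucose-6-phosphate dehydrogenase, opens the pentose phosphate pathway and so supplies NADPH (chromosome X, 74409483 to 74429194, minus strand). In HGPS it ran from 56.7 to 77.6 CPM (median 69.3) and in 2-mo WT from 49.8 to 58.7 (median 54.7). The groups overlapped at their edges, with a rise of 1.25-fold (log2 0.32 ± 0.07, adjusted p = 0.0021). Gsr, glutathione reductase, returns oxidized glutathione to its reduced form (chromosome 8, 33652523 to 33698163, plus strand). It ran from 42.5 to 47.9 CPM (median 43.2) in HGPS and from 36.5 to 43.1 (median 40.6) in 2-mo WT. That difference, log2 0.14 ± 0.07, did not pass (adjusted p = 0.0916; 95% interval of the fold 1.00 to 1.22); with libraries thinned to the smallest total it did (log2 0.17, adjusted p = 0.0372).

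Nqo1, NAD(P)H quinone dehydrogenase 1, reduces quinones to hydroquinones and often serves as a reporter of Nrf2 activity (chromosome 8, 107388225 to 107403206, minus strand). Its lowest, median and highest values were 25.5, 31.2 and 33.9 CPM in HGPS and 29.5, 33.4 and 37.5 in 2-mo WT. The mice overlapped, and the log2 fold change was -0.14 ± 0.10 (adjusted p = 0.29). The 95% interval of the fold was 0.787 to 1.05, which leaves out the folds of Gclm, Txnrd1 and Srxn1.

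**Figure D2:**
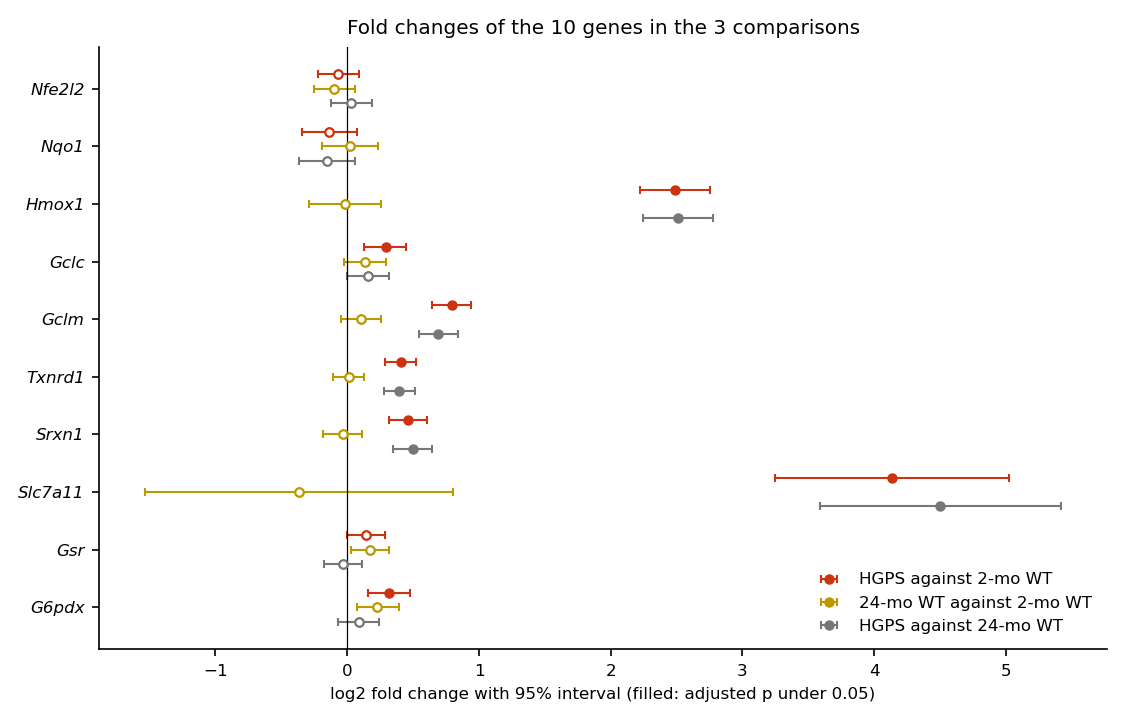
Log2 fold changes of the 10 genes with 95% intervals in the 3 comparisons (edgeR); filled points have an adjusted p under 0.05, open points do not. Hmox1 at 2.49 and Slc7a11 at 4.14 stand to the right for HGPS against 2-mo WT, and every 24-mo WT point is open.

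The second question was whether the genes differ between young and old WT aorta. None of the 10 passed an adjusted p of 0.05 in edgeR, where 6.29% of all genes were higher at 24 mo and 5.38% were lower, and 0 passed the study's cut-offs, against 2.00% of all genes in either direction. At an unadjusted p under 0.05, 2 were higher (Gsr and G6pdx) and 0 were lower. DESeq2 called 1, G6pdx, and limma-voom called 0. The median log2 fold change of the 10 was 0.02, and that of all genes 0.008.

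G6pdx was the gene closest to the threshold. Its lowest, median and highest values were 60.9, 62.8 and 70.2 CPM in 24-mo WT, so all 6 old mice lay above the highest young mouse at 58.7. Of all genes, 3.20% lay above in that way. The log2 fold change was 0.23 ± 0.07 (adjusted p = 0.0508). Gsr ranged from 38.4 to 53.4 CPM at 24 mo with a median of 45.3, and overlapped with 2-mo WT (log2 0.17 ± 0.07, adjusted p = 0.101).

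The genes that were apart in HGPS gave the following at 24 mo. Hmox1 ran from 6.85 to 10.3 CPM with a median of 7.47 and overlapped with 2-mo WT (log2 -0.02 ± 0.13, adjusted p = 0.953; 95% interval of the fold 0.818 to 1.19). Slc7a11 had 0 to 6 counts per mouse and 17 in all. At this depth the 95% interval of its fold was wide, from 0.345 to 1.74, and held both falls and rises with age. Gclm had a median of 36.7 CPM (34 to 41.1; log2 0.10 ± 0.07, adjusted p = 0.392), Txnrd1 of 68.3 (64.5 to 74.8; log2 0.01 ± 0.06, adjusted p = 0.931) and Srxn1 of 40.7 (36.3 to 45.1; log2 -0.03 ± 0.07, adjusted p = 0.814), and each overlapped with 2-mo WT. Gclc had a median of 32 CPM (28.7 to 36.3), Nqo1 of 32.6 (27.7 to 44.2) and Nfe2l2 of 87.3 (77.9 to 103.7), with adjusted p-values of 0.277, 0.931 and 0.445. The upper 95% bounds of the fold were 1.19 for Gclm, 1.09 for Txnrd1 and 1.08 for Srxn1, which lie under the folds of these genes in HGPS. Both comparisons share the 2-mo WT mice.

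Set directly against 24-mo WT, HGPS aortas had 5 of the 10 genes higher at an adjusted p under 0.05 (edgeR; 4 without Slc7a11), where 23.8% of all genes were higher. These were Hmox1 (5.69-fold, adjusted p = 3.3e-11), Slc7a11 (22.7-fold, adjusted p = 1.36e-07), Gclm (1.61-fold, adjusted p = 2.62e-07), Srxn1 (1.41-fold, adjusted p = 9.82e-06) and Txnrd1 (1.32-fold, adjusted p = 1.06e-05). All 6 HGPS mice lay above all 6 24-mo WT mice in the same 5 (4 without Slc7a11), as was so for 10.9% of all genes, and 3 (Hmox1, Slc7a11 and Gclm; 2 without Slc7a11) passed the study's cut-offs, against 6.02%. G6pdx and Gclc, higher in HGPS than in 2-mo WT, overlapped with 24-mo WT (log2 0.09 ± 0.07, adjusted p = 0.353, and log2 0.16 ± 0.07, adjusted p = 0.0933).

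With the group means taken out, the 10 genes did not vary together as a block over the 18 mice. The highest Pearson r of log2 CPM among the 45 pairs was 0.75, between Gclm and Srxn1, followed by 0.58 between Txnrd1 and Slc7a11 and 0.56 between Srxn1 and G6pdx, and the lowest was -0.61, between Nqo1 and Slc7a11. Hmox1 reached at most 0.29 with any of the other 9, and Nfe2l2 had 0.002 with Hmox1. Among 10707 genes averaging 100 counts or more per mouse, the genes most like Hmox1 were Crip1 (0.77), Lgals3 (0.76) and Gm20390 (0.76). For G6pdx they were Sfxn1 (0.91), Cpt2 (0.91) and Bckdhb (0.90), and for Slc7a11 Ccdc97 (0.92), Mtif3 (0.83) and Crtc2 (0.83). Srr was among the 3 most like both Gclm (0.84) and Srxn1 (0.85). The values of a mouse share 1 library and its depth, and these coefficients are descriptions. Slc7a11 had 0 to 7 counts in each WT mouse, so its coefficients with Txnrd1, Nqo1 and the genes most like it carry much counting noise. The genes most like a member are the highest of 10707, and how high chance alone would reach was not tested.

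The aortas also differed in cell type markers. Whole tissue cannot tell fewer cells of a type from less RNA per cell. Of 12 macrophage markers, 10 were higher in HGPS than in 2-mo WT and 0 were lower. Their summed level was 1020 to 1594 CPM in HGPS, 601 to 859.1 in 2-mo WT and 570.8 to 1115 in 24-mo WT, and the mean log2 CPM of the list, its score, was 0.77 higher in HGPS (two-sided exact permutation test, adjusted p = 0.00648 over 12 lists). All 12 brown fat markers were higher (summed 542.3 to 2013 CPM against 124.4 to 730.6; score 2.29 higher, exact adjusted p = 0.0104), and 7 of 9 smooth muscle markers were lower (summed 20890 to 29080 CPM against 31960 to 40790; score -0.61, exact adjusted p = 0.00648). No marker of these lists was at 0 in any group. The score of erythroid markers, from cells rich in heme, was 0.16 higher in HGPS (exact adjusted p = 0.827), with summed levels of 556.4 to 5321 CPM in HGPS and 553.4 to 6520 in 2-mo WT. Within groups over 18 mice, Hmox1 had an r of 0.64 with the erythroid score and 0.564 with the endothelium score. Its r was -0.47 with smooth muscle, 0.365 with cell cycle genes and 0.27 with macrophages. The meaning of these coefficients was not tested. The remaining scores differed by 1.34 for white fat (exact adjusted p = 0.0111), 1.63 for cell cycle genes (0.00648), -0.35 for fibroblasts (0.00648), 0.13 for nerve (0.0111), 0.21 for endothelium (0.254), 0.60 for neutrophils (0.107), 0.42 for skeletal muscle (0.171) and -0.38 for lymphocytes (0.493), each in HGPS against 2-mo WT. By the median of a list in place of its mean, fibroblasts (-0.10, exact adjusted p = 0.413) and nerve (0.57, exact adjusted p = 0.0631) did not pass and skeletal muscle did (1.36, exact adjusted p = 0.00864). Only 3 of 6 skeletal muscle markers were tested, all at low levels, and they disagreed. In HGPS against 2-mo WT, Tnnt3 was higher (1.26 against 0.300 CPM) and Ckm lower (1.24 against 2.61 CPM). This limit also holds where that score is a covariate below. The neutrophil and lymphocyte scores rest on 3 tested markers each, of 6 and of 8, with no Cd3 gene among them. The nerve score rests on 5 of 8. At 24 mo, the fibroblast score was lower (-0.50) and the nerve score higher (0.36) than at 2 mo (exact adjusted p = 0.013 for each), and the macrophage score differed by 0.05 (exact adjusted p = 0.852).

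Marker scores were therefore put into the fit as covariates. With the macrophage score, the log2 fold changes in HGPS against 2-mo WT were 2.30 for Hmox1 (adjusted p = 2.45e-06), 0.88 for Gclm (9.26e-05), 4.65 for Slc7a11 (0.000311), 0.33 for Txnrd1 (0.0152), 0.44 for Srxn1 (0.0131) and 0.42 for G6pdx (0.021), and Gclc fell to 0.15 and out of the call (0.383). The HGPS mouse with the lowest macrophage score, 5.33, lay below the 24-mo WT mouse with the highest, 5.39. That HGPS mouse had 39.7 CPM of Hmox1, 66.3 of Gclm and 4.91 of Slc7a11, and that 24-mo WT mouse 10.3, 38.1 and 0.0717. This pair is 1 mouse per group, picked by its score and unlike in age. The 24-mo WT mouse was the highest of its group in Hmox1, and the HGPS mouse the highest of its group in Gclm. The part of macrophages in these levels was not tested. With brown fat and skeletal muscle scores, Hmox1 kept a log2 fold change of 2.49 (5.85e-07), Gclm 0.84 (1.85e-05), Slc7a11 3.67 (0.00123), Txnrd1 0.42 (0.00256), Srxn1 0.43 (0.00684) and Gclc 0.34 (0.0218), and G6pdx fell to 0.13 and out of the call (0.345). G6pdx also went with the fat scores within groups (r = 0.65 with brown and 0.68 with white fat over 18 mice). With smooth muscle and fibroblast scores together, 3 genes of all 15210 passed, against 2037 with the macrophage score, and Hmox1 was 1 of them (log2 1.92, adjusted p = 0.044). The other 6 genes did not pass in that fit: the log2 fold change was 4.49 for Slc7a11 (adjusted p = 0.318), 0.61 for Gclm (0.392), 0.27 for Txnrd1 (0.886), 0.26 for Srxn1 (0.901) and 0.04 for Gclc and for G6pdx (0.99 for each). The HGPS and 2-mo WT mice did not overlap in the smooth muscle, the fibroblast or the macrophage score, and the smooth muscle and fibroblast scores were not fitted apart from each other.

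**Figure D3:**
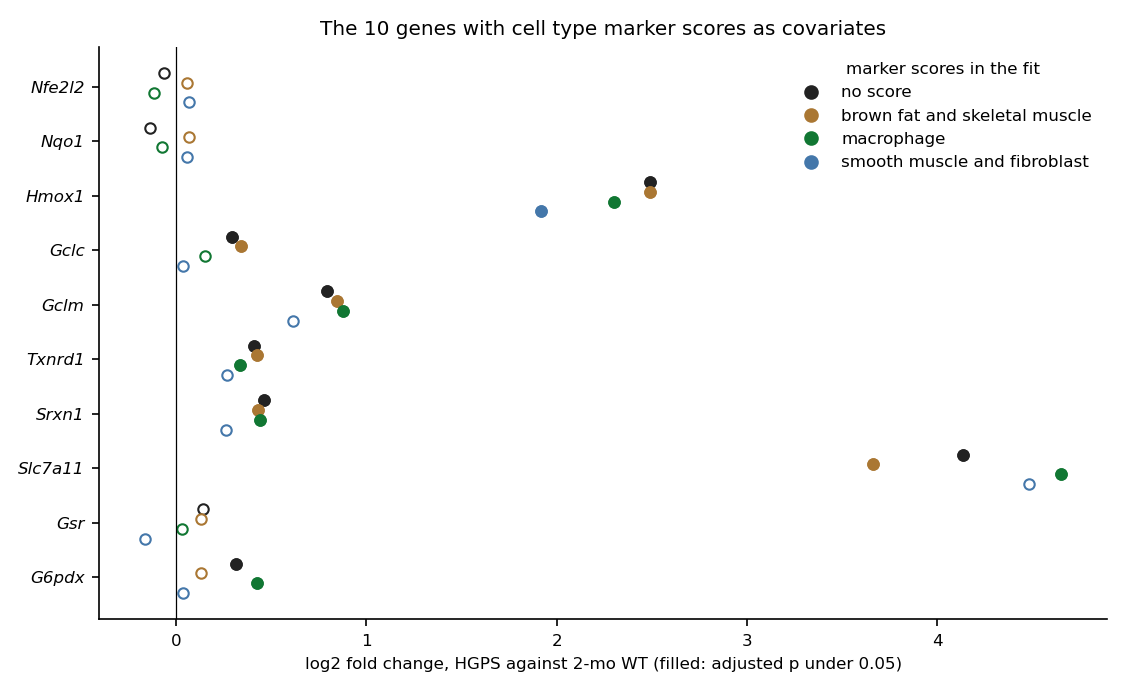
Log2 fold changes of the 10 genes, HGPS against 2-mo WT, without marker scores and with macrophage, with brown fat and skeletal muscle, or with smooth muscle and fibroblast scores as covariates (edgeR); filled points have an adjusted p under 0.05. Hmox1 stays filled throughout, from 1.92 to 2.49, while Gclc and G6pdx are each open under 2 of the 3 sets of scores.

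**Figure D4:**
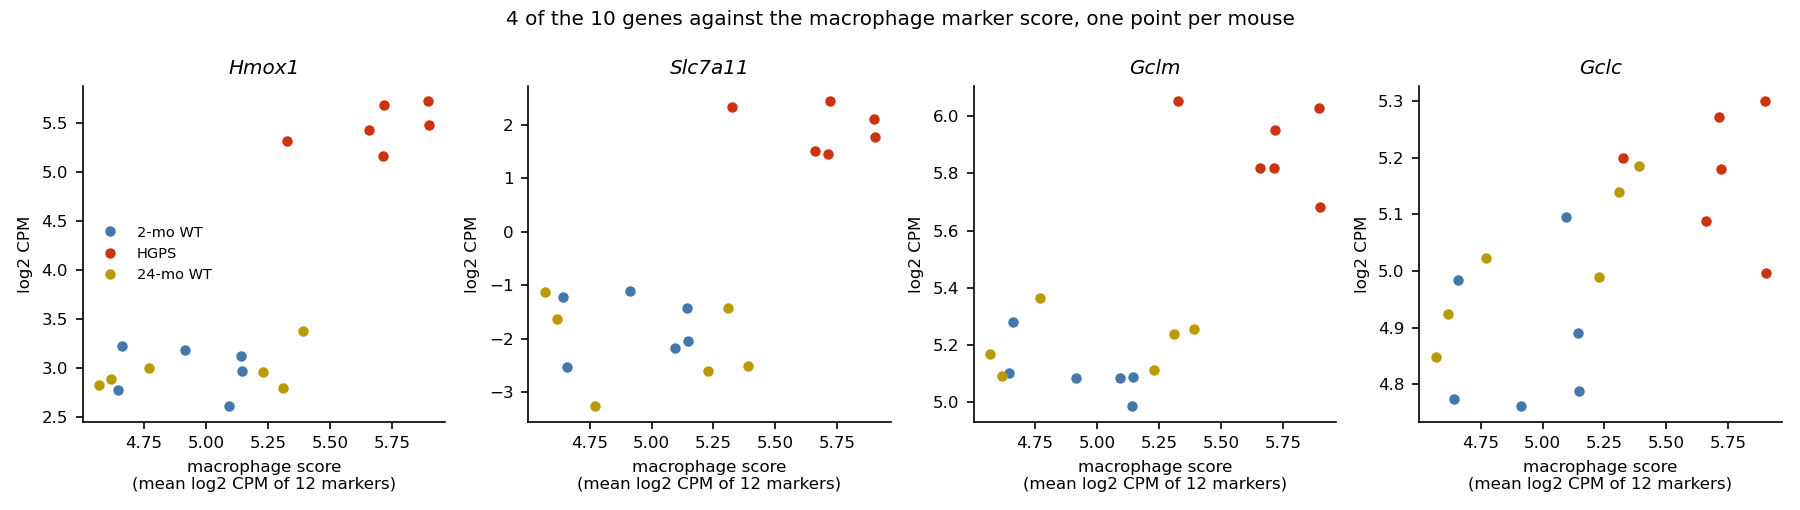
Log2 CPM of Hmox1, Slc7a11, Gclm and Gclc against the macrophage score (mean log2 CPM of 12 markers), 1 point per mouse. The HGPS mouse at a score of 5.33 lies within the range of the other HGPS mice in Hmox1 and Slc7a11, and is the highest of its group in Gclm. The 24-mo WT mice near that score are level with the other WT mice in Slc7a11 and Gclm. In Hmox1, the 24-mo WT mouse with the highest score lies at 10.26 CPM, above the others of its group at 6.854 to 7.897.

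Around the 10 genes, 149 of 160 others listed for oxidant defence had enough counts to be tested, in 9 lists; 68 were higher and 22 lower in HGPS than in 2-mo WT, and 16 were higher and 12 lower in 24-mo than in 2-mo WT (adjusted p under 0.05, edgeR). The counts of each list stand beside 22% of all genes higher and 21.2% lower in HGPS, 6.29% higher and 5.38% lower at 24 mo, and are descriptions of the lists with no test. Of the 15 regulators and partners of Nrf2, 6 were higher and 2 lower in HGPS (median log2 fold change 0.08). Maff, a small Maf partner, rose 2.61-fold (adjusted p = 1.18e-05) and Mafg 1.35-fold (log2 0.44, adjusted p = 0.00436), while Btrc, part of another ubiquitin ligase for Nrf2, fell (log2 -0.26, adjusted p = 0.00603), as did Dpp3, which competes for Keap1 (log2 -0.25, adjusted p = 0.00655). With the macrophage score, Mafg (log2 0.35, adjusted p = 0.215), Btrc (log2 -0.20, adjusted p = 0.246) and Dpp3 (log2 -0.15, adjusted p = 0.355) did not pass, nor did Btrc with brown fat and skeletal muscle scores (log2 -0.17, adjusted p = 0.247). Keap1 and Bach1, looked at because of their role after the values were seen, had log2 fold changes of -0.03 (adjusted p = 0.799) and -0.05 (adjusted p = 0.642). At 24 mo, 2 regulators were higher and 1 lower: Maff rose 1.84-fold (adjusted p = 0.00342), Mafk 1.49-fold (adjusted p = 0.000226) and Bach1 fell (log2 -0.36, adjusted p = 0.00812).

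Glutathione synthesis, recycling and export had 9 of 14 genes higher and 1 lower in HGPS (median 0.47). Slc3a2, the heavy chain that carries xCT to the cell surface, rose 1.75-fold (adjusted p = 1.41e-05), and Abcc1, a pump that exports glutathione conjugates, fell (log2 -0.41, adjusted p = 0.000203; with the macrophage score log2 -0.19, adjusted p = 0.217). Oplah, the 5-oxoprolinase that returns glutamate to the cycle, rose 1.59-fold (log2 0.67, adjusted p = 0.0122). With brown fat and skeletal muscle scores it gave a log2 fold change of -0.02 (adjusted p = 0.96), against 0.94 (adjusted p = 0.0511) with the macrophage score. Chac1, which degrades glutathione, rose 5.97-fold (adjusted p = 7.35e-08) from low counts, and was singled out after its value was seen. Glutathione peroxidases and transferases moved both ways, with 11 of 26 higher and 7 lower (median 0.27). Gsta4, which conjugates lipid aldehydes, rose 2.25-fold (adjusted p = 0.000152), while Gstm1 (log2 -0.71, adjusted p = 3.7e-06) and Gstm7 (log2 -0.79, adjusted p = 6.56e-07) fell; the Gstm genes are near copies of each other, among which read assignment is uncertain. Gpx3, a secreted peroxidase, rose 2.96-fold (adjusted p = 0.00011), and with brown fat and skeletal muscle scores it gave a log2 fold change of 0.71 (adjusted p = 0.0749), as Gsta4 gave 0.47 (adjusted p = 0.118).

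Among thioredoxins and peroxiredoxins, 8 of 20 were higher and 4 lower (median 0.13). Sesn2, a stress-induced sestrin, rose 2.58-fold (adjusted p = 3.64e-06) and Prdx3, the mitochondrial peroxiredoxin, 1.60-fold (adjusted p = 8.47e-05), while Txnrd3 (log2 -0.44, adjusted p = 0.000221) and Nxn (log2 -0.50, adjusted p = 3.05e-05) fell. NADPH supply had 9 of 16 higher and 1 lower (median 0.37), with Mthfd2, of mitochondrial folate metabolism, 3.38-fold higher (adjusted p = 6.76e-06) and Mthfd1, of the cytosolic branch, lower (log2 -0.17, adjusted p = 0.0342; with the macrophage score log2 -0.10, adjusted p = 0.535). Aldh1l1, the folate dehydrogenase, rose 2.69-fold (adjusted p = 0.000315), at log2 0.52 with fat and muscle scores (adjusted p = 0.255). Heme and iron handling had 8 of 15 higher and 0 lower (median 0.54): the transferrin receptor Tfrc rose 2.90-fold (adjusted p = 1.09e-05) and Hp, haptoglobin, which fat cells also make, 6.19-fold (adjusted p = 0.000216), the latter at log2 1.19 with fat and muscle scores (adjusted p = 0.162). Other detoxification enzymes linked to Nrf2 had 8 of 23 higher and 3 lower (median 0.04). There Mt2, a metallothionein, rose 4.34-fold (log2 2.12, adjusted p = 8.71e-05), and Nqo2, the paralog of Nqo1, fell (log2 -0.39, adjusted p = 0.000342), as did Akr1c14, an aldo-keto reductase (log2 -0.73, adjusted p = 1.85e-05). With the macrophage score, Mt2 (log2 1.44, adjusted p = 0.0826) and Nqo2 (log2 -0.23, adjusted p = 0.158) did not pass. Ces1d, a carboxylesterase of fat cells, rose 3.65-fold (adjusted p = 0.00262), at log2 0.07 with fat and muscle scores (adjusted p = 0.857).

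Enzymes that remove superoxide and peroxide had 4 of 8 higher and 0 lower (median 0.23), among them Cat, catalase (1.45-fold, adjusted p = 0.00203), and Sod2, mitochondrial superoxide dismutase (1.28-fold, adjusted p = 0.0139). With fat and muscle scores neither passed (log2 0.12, adjusted p = 0.576, and log2 0.11, adjusted p = 0.623). Sod2 did not pass with the macrophage score either (adjusted p = 0.175), although its log2 fold change was 0.36 both with and without that score. Genes for oxidant sources had 5 of 12 higher and 4 lower (median 0.38). The subunits of the phagocyte NADPH oxidase Ncf1 (2.71-fold, adjusted p = 0.00017) and Cybb (1.70-fold, adjusted p = 0.000733) rose, and with the macrophage score neither passed (log2 0.38, adjusted p = 0.357, and log2 0.10, adjusted p = 0.742). Nox4, the main NADPH oxidase of vascular smooth muscle, moved in opposite directions in the 2 comparisons with 2-mo WT: it fell in HGPS (log2 -0.71, adjusted p = 2.43e-05) and rose at 24 mo (log2 0.46, adjusted p = 0.00487). The smooth muscle score was also lower in HGPS, by 0.61. With smooth muscle and fibroblast scores in the edgeR fit, Nox4 passed in neither comparison (adjusted p = 0.907 and 0.247), and few genes of any kind did.

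**Figure D5:**
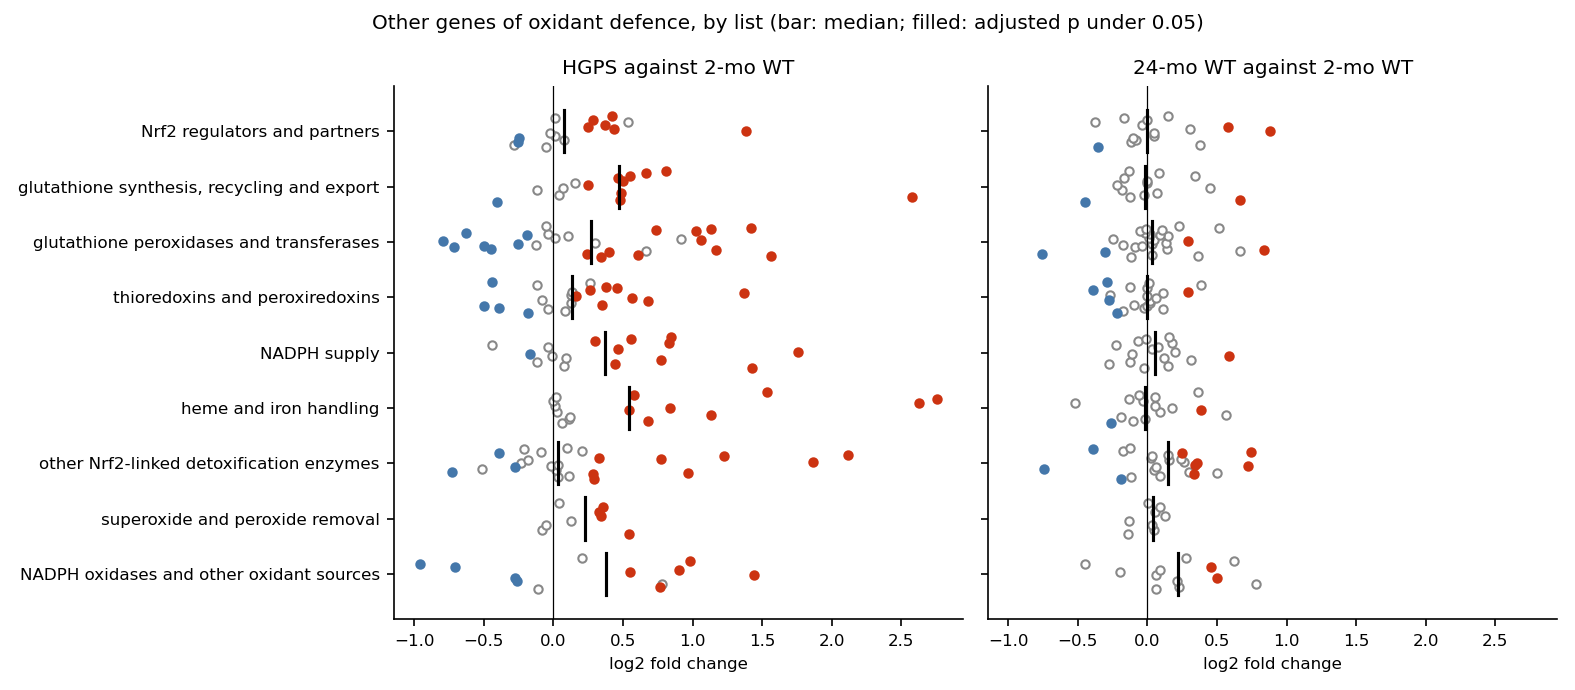
Log2 fold changes of the 149 other tested genes by list, for HGPS and for 24-mo WT, each against 2-mo WT; bars are list medians, and filled points have an adjusted p under 0.05 (red higher, blue lower). The HGPS medians run from 0.04 for other detoxification enzymes to 0.54 for heme and iron handling, and most points at 24 mo are open.

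At 24 mo, the lists read as follows beside the lower shares of all genes given above. Superoxide and peroxide removal had 0 of 8. Glutathione synthesis, recycling and export had 1 higher, the pump Abcc4 (1.58-fold, adjusted p = 8.65e-05), and 1 lower, Abcc1 (log2 -0.45, adjusted p = 0.000298). Glutathione peroxidases and transferases had 2 higher and 2 lower, with Gsta4 up 1.79-fold (adjusted p = 0.0104). NADPH supply had 1 higher, the mitochondrial malic enzyme Me3 (log2 0.59, adjusted p = 0.015), and oxidant sources had 2, Nox4 and Maob, a monoamine oxidase that makes peroxide (1.41-fold, adjusted p = 0.000229). Thioredoxins and peroxiredoxins had 1 higher and 4 lower, among them Txn1, thioredoxin itself (log2 -0.39, adjusted p = 0.00289). Gpx7, a peroxidase of the endoplasmic reticulum, fell (log2 -0.76, adjusted p = 3.26e-06), and Fth1, ferritin heavy chain, rose 1.31-fold (adjusted p = 0.00195). The detoxification list had 6 higher and 3 lower. Among these, Aox1, aldehyde oxidase, rose 1.65-fold (edgeR, adjusted p = 2.5e-05). Aldh3a1 (log2 -0.745, adjusted p = 0.0481) and Ptgr1 (log2 -0.39, adjusted p = 0.0108) fell, and the Aldh3a1 call held in 12 of 30 alternatives. Leaving out 1 mouse moved the 9 calls of the detoxification list to between 4 and 9, with over a 1.5-fold change without 2-mo WT replicate 2, 3, 4 or 5 or 24-mo WT replicate 2, 4 or 5. It moved the 5 calls of the thioredoxin list to between 3 and 5 (without 2-mo WT replicate 1, 2, 3 or 5 or 24-mo WT replicate 1, 2 or 5) and the 2 of heme and iron handling to 1 or 2 (without 2-mo WT replicate 1, 2, 3 or 5 or 24-mo WT replicate 2, 3, 5 or 6).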

How the data were processed

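Paired-end, stranded, ribosome-depleted RNA-seq libraries of 18 aortas were used. The authors assigned reads to GENCODE M23 transcripts (GRCm38.p6) with salmon, summed them per gene with tximport and deposited estimated counts as whole numbers, without normalization; the rounding step is not stated. The submitters' processing notes also list mm10 and Bowtie 0.12.2, with no role given. Totals were 12413229 to 30844775 counts per mouse: 17838351 to 30844775 in HGPS, 12413229 to 21016752 in 2-mo WT and 13622602 to 19871697 in 24-mo WT. The 45 pairs of mice within groups all differed beyond sampling noise (chi-square per degree of freedom 7.77 to 93.8). Lmna, the mutated gene, was measured as a sum over its transcripts (577.3 ± 82.3 CPM in HGPS, 415.7 ± 60.7 in 2-mo WT; SD, n = 6), which does not separate progerin.

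Groups came from the sample labels. The 15210 genes that reached 10 counts in 6 or more mice entered edgeR 4.0.16 (R 4.3.3; TMM, glmQLFit, glmQLFTest) in one fit of 3 groups with 15 residual degrees of freedom and Benjamini-Hochberg adjustment. Standard errors were taken as the absolute log2 fold change over the square root of F, and a prior count of 2 was used for log2 CPM. Symbols and coordinates are from GENCODE M21 (GRCm38; 54107 identifiers found). The fit was tested on simulated counts for HGPS against 2-mo WT: of 200 changed genes among 15210, it recovered 86% at 1.5-fold, 100% at 2-fold, 90% at 0.5-fold and 74% at 0.667-fold, with 6 calls among unchanged genes. The changed genes were drawn from those with a mean of 100 counts or more. These rates therefore do not cover genes of lower counts or smaller changes. Nor do they cover data in which many more than 200 genes change, and 6567 were called in HGPS against 2-mo WT.

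The genes, lists, markers and tests were chosen with earlier results of these data known. All 10 genes were named. Most other named genes were drawn from the 3 genes most like each of the 10, or from the lists. From each list, they were among up to 2 rises and 2 falls of passing genes with a mean of 100 counts or more. This was done in the HGPS and the 24-mo comparison with 2-mo WT. Not every gene that met these rules is given in the text. Marker scores were compared by exact permutation tests of 6 against 6 mice, whose smallest two-sided p is 0.00216. Alternatives were DESeq2 1.42.0, limma-voom (limma 3.58.1), other scalings and filters, 2 groups alone, a replicate block, thinning to 12413229 counts, marker scores as covariates and leaving out each mouse.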

Additional observations from a re-analysis of the deposited data

Results flagged for a closer look

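The lowest and the highest mouse of each group of 6 were checked for a gap to the others in each of the 10 genes, which made 30 groups, and chance gives about 1 such gap in 20 groups. In 2 groups the gap was larger than Dixon's 95% critical value for 6 samples. In Nfe2l2, replicate 1 of 2-mo WT lay at 77.86 CPM and the other 5 at 93.39 to 101.2 (gap 0.694 of the group's range in log2 CPM). In Hmox1, replicate 2 of 24-mo WT lay at 10.26 CPM and the other 5 at 6.854 to 7.897 (gap 0.649 of that range); this mouse also had the highest macrophage score of its group, 5.39, and the part of that score in its Hmox1 level was not tested.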

How the results depend on the processing

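The same-numbered mice of different groups correlated at -0.162 to 0.172 in their deviations from the group means, so the numbers do not pair them; with the replicate block 7, 0 and 5 of the 10 genes passed in HGPS against 2-mo WT, 24-mo against 2-mo WT and HGPS against 24-mo WT, with 3, 0 and 3 past the study's cut-offs, the counts given above. Without marker scores, 781 of 807 alternative values of the 10 genes kept their direction and side of the threshold. Most of these values come from the 18 fits without 1 mouse, some of it from neither group compared. They share nearly all their data with the main fit, so the share is not an independent check. With smooth muscle and fibroblast scores, 1 of the 10 passed in each HGPS comparison and 0 passed the study's cut-offs. At 24 mo against 2 mo, 1 passed under DESeq2, library totals only, a minimum of 10 counts in all 18 mice, 2 groups alone and the macrophage score (G6pdx, log2 0.23 to 0.24) and under thinning (Gsr); leaving out mice gave 0 to 1. G6pdx passed without HGPS replicate 2, 3, 4 or 5, and Gsr without 24-mo WT replicate 1. Over all alternatives the adjusted p of G6pdx at 24 mo ranged from 0.0219 to 0.94. Slc7a11 could not be fitted with a minimum of 10 counts in all 18 mice. Calls in the other lists, HGPS against 2-mo WT, moved with the macrophage score from 8 to 2 (regulators), 10 to 5 (glutathione synthesis), 8 to 4 (heme and iron), 11 to 6 (detoxification), 4 to 1 (superoxide and peroxide removal) and 9 to 1 (oxidant sources), and with fat and muscle scores from 18 to 5 (peroxidases and transferases), 10 to 3 (NADPH supply), 4 to 2 (superoxide and peroxide removal) and 9 to 4 (oxidant sources). Over all 15210 genes, calls in that comparison moved from 6567 to 2037 with the macrophage score and to 3276 with fat and muscle scores. Calls thus fell over all genes as well as in the lists, by differing shares. Whether any list fell by more than all genes was not tested. At 24 mo, the detoxification list moved from 9 to 2 with no low-count filter, 5 with 2 groups alone, 4 under thinning and 2 with fat and muscle scores, the thioredoxin list from 5 to 3 with no filter, 2 groups alone or the replicate block and to 1 with fat and muscle scores, and heme and iron from 2 to 1 with no filter, the stricter filter or the replicate block. All-gene calls at 24 mo moved from 1775 to 1438 with no filter, 1546 with the stricter filter and 1495 with 2 groups alone. They were 1570 with the replicate block, 1611 under thinning and 1152 with fat and muscle scores.

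Signs turned, in log2 fold change, as follows. HGPS against 2-mo WT, fat and muscle scores: Nfe2l2 0.056, Nqo1 0.069, Oplah -0.022. The same comparison, smooth muscle and fibroblast scores: Nfe2l2 0.068, Nqo1 0.058, Gsr -0.164, Btrc 0.169, Oplah -0.289, Abcc1 0.112, Gpx3 -0.563, Prdx3 -0.02, Mthfd1 0.069, Cat -0.219, Sod2 -0.504, Cybb -0.082. At 24 mo against 2 mo: Hmox1 0.07 and Srxn1 0.023 with fat and muscle scores, Nqo1 -0.122, Hmox1 0.081 and Gclm -0.141 with smooth muscle and fibroblast scores, and the macrophage score difference -0.054 by medians. HGPS against 24-mo WT: Nfe2l2 -0.014 with the macrophage score, Nqo1 0.18 and G6pdx -0.012 with smooth muscle and fibroblast scores, G6pdx -0.123 with fat and muscle scores, and the skeletal muscle score difference 0.569 by medians. Leaving out 1 mouse turned the sign of Nqo1 (-0.072 to 0.072), Hmox1 (-0.105 to 0.03) and Txnrd1 (-0.012 to 0.041) at 24 mo, and of Nfe2l2 (-0.007 to 0.083) and Gsr (-0.081 to 0.02) in HGPS against 24-mo WT. None of the values turned by leaving out a mouse had passed the test. The cause of the turns was not tested. At these depths Slc7a11 in WT, at 0 to 7 counts per mouse, is the value that depth limits.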
